A study of Caenorhabditis elegans with 2 samples.

Results

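AHA-1 binding was described at the genes for translation initiation and elongation factors of Caenorhabditis elegans. The 39 genes were taken by name, as every protein-coding gene of the annotation with a symbol starting with eef-, eif-, iff-, ife- or ifg-, out of 19985 protein-coding genes. They comprise 6 elongation factor genes (eef-), 31 genes grouped as initiation factors (eif-, ife- and ifg-) and 2 genes for eIF5A (iff-). The data are ChIP-seq (sequencing of DNA recovered by chromatin immunoprecipitation) for AHA-1 fused to eGFP, from entire L4 larvae with males and females pooled. There was 1 group of 2 biological replicates, both of strain OP124, which carries the tagged aha-1 as the insertion wgIs124 in animals with the unc-119(ed3) III mutation. The antibody is labelled aha-1, and the sources used here do not name the promoter of the transgene. Whole animals do not show in which tissue a site was occupied.

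AHA-1 is the worm counterpart of the mammalian ARNT protein, a DNA-binding partner shared by several factors of the bHLH-PAS family, among them the hypoxia factor HIF-1. Initiation factors bring the small ribosomal subunit, the initiator tRNA and the mRNA cap together. Elongation factors then deliver each aminoacyl-tRNA and move the ribosome along the mRNA. The protein eIF5A was first named as an initiation factor and is now known to assist peptide bond formation, so its genes were kept apart from both classes.

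The authors deposited a list of 30000 candidate peaks called on both replicates together, a list of the same length for each replicate, and a list of 530 peaks that passed the irreproducible discovery rate (IDR). The candidate lists include background by design, so a place in them does not mean a bound site. The IDR peaks were the 530 candidates with the highest signal, a value the peak caller wrote for ChIP against control, which is used here to rank peaks within a list and was not compared between lists. Signal in the pooled list ran from 4.85 to 368 with a median of 7.08. The lists hold no read counts, so depth is unknown. Each gene was given its highest pooled peak with a summit no more than 1000 bp before and 500 bp after any of its annotated starts, called its promoter window here. Many worm mRNAs are trans-spliced, and an annotated start can then lie downstream of the point where transcription begins.

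The bases around the summits are shown for the genes that the comparison turns on. They come from the WBcel235 genome, which is the ce11 assembly, and are printed on the plus strand with ACGTG or GCGTG on either strand in capitals. This core (RCGTG) is the site of ARNT pairs. The first is the strongest site of the 39 genes, at iff-2 (II:8561382-8561482). The next ones are the elongation sites at eef-1A.1 (III:6972045-6972145), eef-1A.2 (X:7823244-7823344) and eef-1B.2 (IV:15037128-15037228). The strongest site of an initiation factor gene, at eif-2Bgamma (II:6968249-6968349), and the weakest, at eif-1.A (IV:4811101-4811201), were added after their values were seen. Each of these windows spans 101 bp. For eef-1B.1 (III:7973351-7973379) and eef-1G (V:10965673-10965701) 29 bp are shown, because the wider window reaches into a UTR. The eef-1B.1 summit itself lies in a UTR exon, so its shorter window is not free of UTR. The core of eef-1B.1 lies outside the 29 bp shown.
iff-2: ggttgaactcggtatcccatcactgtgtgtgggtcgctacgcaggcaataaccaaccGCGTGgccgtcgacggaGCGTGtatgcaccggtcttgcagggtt
eef-1A.1: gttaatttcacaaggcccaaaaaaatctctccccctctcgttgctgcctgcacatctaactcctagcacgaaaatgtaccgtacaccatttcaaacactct
eef-1A.2: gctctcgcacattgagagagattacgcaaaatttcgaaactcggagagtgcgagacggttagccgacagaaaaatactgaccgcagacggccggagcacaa
eef-1B.2: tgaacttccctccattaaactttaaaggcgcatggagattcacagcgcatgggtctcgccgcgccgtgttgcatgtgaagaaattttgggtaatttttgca
eif-2Bgamma: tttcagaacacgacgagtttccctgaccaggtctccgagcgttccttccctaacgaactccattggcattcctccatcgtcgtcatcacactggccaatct
eif-1.A: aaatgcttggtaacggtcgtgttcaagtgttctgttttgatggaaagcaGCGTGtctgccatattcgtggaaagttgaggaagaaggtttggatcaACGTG
eef-1B.1: agtctgtcgaaaccccatgcgccttcaaa
eef-1G: gcgtagaacccctatgttttgcgtactgg

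Strong AHA-1 peaks in the pooled data stood at elongation factor genes more often than at initiation factor genes. Of the 6 elongation factor genes, 5 had an IDR summit in the promoter window (83.3%), against 0 of the 31 initiation factor genes and 1 of the 2 eIF5A genes. Over all 39 genes this made 6, or 15.4%, whereas 2.09% of all protein-coding genes had one. Among genes with any pooled candidate summit in the window, the share was 4.47% of 9352 genes, beside 6 of 27 translation factor genes. With shares as low as these over all genes, 0 of 31 initiation factor genes is near the background and does not show a depletion. The 6 elongation factor genes had a median pooled rank of 179. The median over the 31 initiation factor genes was 9381 with the 12 genes that had no candidate placed last, and 4964 over the 19 that had one. Over all protein-coding genes with a candidate the median rank was 11091.5. A candidate was present for 61.3% of initiation factor genes and for 46.8% of all protein-coding genes. These are counts over genes without a test, and with 1 group of animals no conditions could be compared.

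**Figure D1:**
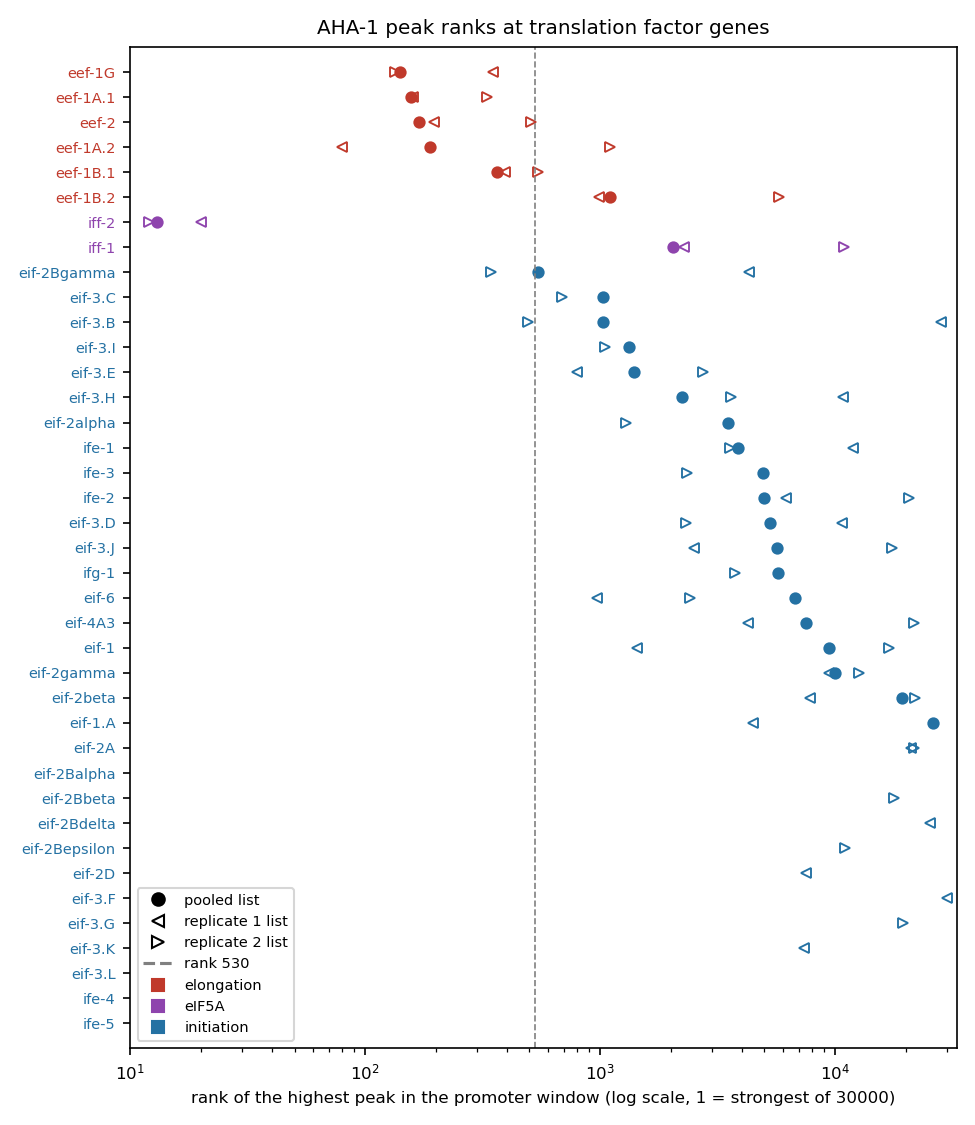
Rank of the highest peak in the promoter window (x axis, log scale, 1 is the strongest of 30000) for each of the 39 genes, in the pooled list (filled circles) and in the lists of replicate 1 and replicate 2 (open triangles); the dashed line marks rank 530. In the pooled list 5 of 6 elongation genes and iff-2 lie left of the line, and every initiation gene lies right of it; a missing circle or triangle means no peak in that window in the list concerned.

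The eEF1A genes encode the GTPase that brings aminoacyl-tRNA to the ribosome, and both had an IDR summit in the promoter window. At eef-1A.1 (WBGene00001168, peak III:6971937-6972252) the pooled signal was 40.0 at rank 157, and the overlapping peak had rank 159 in replicate 1 (signal 20.7) and 330 in replicate 2 (18.2). At eef-1A.2 (WBGene00001169, X:7823136-7823451) the pooled signal was 36.3 at rank 189, with rank 80 in replicate 1 (27.2) and 1099 in replicate 2 (12.2). The eef-1A.1 peak was thus high in both replicates, and the eef-1A.2 peak was high in replicate 1 and lower in replicate 2. The summits lay at similar places, at -383 bp from the start of eef-1A.1 and -360 bp from that of eef-1A.2 (negative is upstream), outside any protein-coding gene. The eef-1A.1 summit was closer to the start of rfc-4, 158 bp away, and lay 10 bp from the miRNA gene cel-mir-5549. To which of these genes the site belongs was not tested.

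The eEF1B complex recharges eEF1A with GTP, and its 3 genes covered a wider range. At eef-1G (WBGene00008920, V:10965529-10965844) the pooled signal was 41.7 at rank 141, the highest of the eef- genes, with rank 350 in replicate 1 (15.5) and 134 in replicate 2 (25.2). At eef-1B.1 (WBGene00018846, III:7973207-7973522) it was 29.1 at rank 365, with ranks 394 (14.8) and 544 (15.4). At eef-1B.2 (WBGene00012768, IV:15037020-15037335) it was 18.6 at rank 1096, with ranks 990 (10.4) and 5752 (7.25). The eef-1B.2 peak was the weakest of the elongation class in the pooled list and in each replicate. The eef-1G summit was 32 bp upstream of the nearest of 5 annotated starts, and that of eef-1B.1 lay in the UTR exon of the gene, 21 bp downstream of its start. The promoter window of aco-2, which encodes the mitochondrial aconitase, also held the eef-1B.1 summit, and that of ctf-4 held the eef-1G summit. A further candidate stood at -881 bp from the start of eef-1B.1 with signal 20.4 at rank 880, outside the IDR list.

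The gene eef-2 encodes the factor that moves the ribosome by a codon. Its peak (WBGene00001167, I:9163385-9163700) had a pooled signal of 38.2 at rank 169, with rank 196 in replicate 1 (19.0) and 510 in replicate 2 (15.6). Both replicates placed it among their top 530. The summit lay in a UTR exon 12 bp downstream of the nearest of 3 starts, in a window shared with clsp-1.

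The strongest peak of the 39 genes stood at iff-2, the eIF5A gene of somatic tissue. Its peak (WBGene00002065, II:8561361-8561508) had a signal of 111 at rank 13 in the pooled list, rank 20 in replicate 1 (44.1) and rank 12 in replicate 2 (64.2). The summit was 65 bp upstream of the nearest start, in a window shared with F54C9.14. The other eIF5A gene, iff-1 (WBGene00002064, III:9747261-9747576), known for its role in germ cells, had a signal of 14.6 at rank 2032, with ranks 2276 (8.02) and 10947 (5.65). The iff-2 peak ranked above the iff-1 peak in each of the 3 lists, and the iff-1 summit was nearer to the start of cdk-1, 53 bp away.

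**Figure D2:**
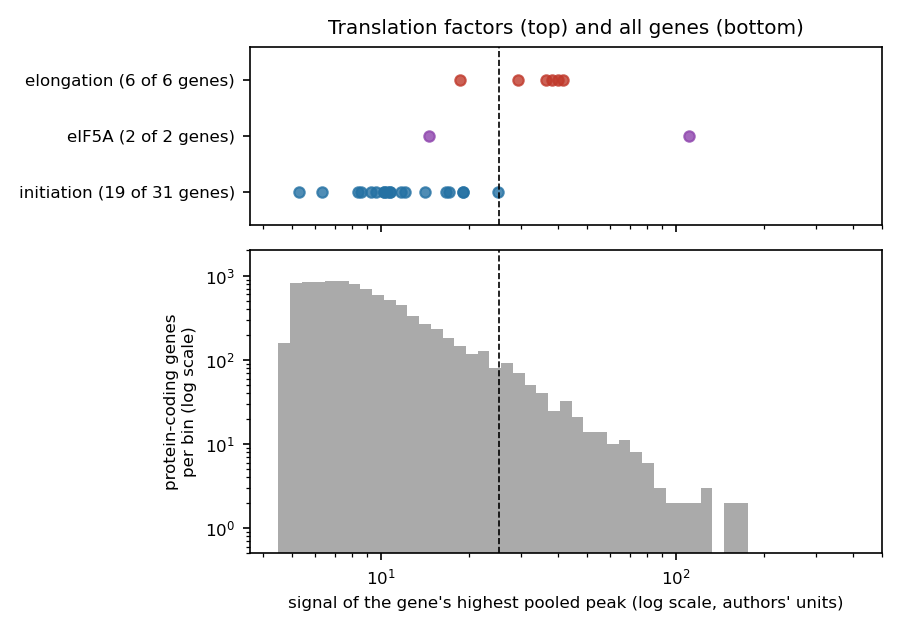
Signal of the highest pooled peak in the promoter window (x axis, log scale, authors' units) for the translation factor genes with a candidate, by class (top), and for all 9352 protein-coding genes with a candidate (bottom, genes per bin on a log scale). The dashed line is the lowest IDR signal, 25.2; 5 elongation genes and iff-2 lie above it, and the 19 initiation genes lie between 5.31 and 25.005.

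Among initiation factors the highest peak was at eif-2Bgamma, a subunit of the eIF2B complex that recycles eIF2. This peak (WBGene00004090, II:6968141-6968456) had a pooled signal of 25.005 at rank 541, just outside the IDR list, whose last peak had a signal of 25.25 at rank 530. It ranked 4300 in replicate 1 (6.49) and 342 in replicate 2 (17.9), so it was high in replicate 2 alone. The summit lay 651 bp upstream of the start, in a coding exon of C15F1.5 and 19 bp from the piRNA gene 21ur-14704. The other eIF2B genes, eif-2Balpha, eif-2Bbeta, eif-2Bdelta and eif-2Bepsilon, had no pooled candidate.

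The eif-3 genes encode subunits of eIF3, the large scaffold on the small ribosomal subunit. Of the 11 genes with this name, 7 had a candidate, and 4 of them ranked 2000 or better. The naming rule leaves out egl-45, known as the gene of another eIF3 subunit, whose highest candidate had a signal of 8.94. At eif-3.C (I:9979717-9980032) the pooled signal was 19.1 at rank 1027, with no overlapping peak in replicate 1 and rank 690 in replicate 2 (14.2). At eif-3.B (II:14795038-14795353) it was also 19.1, at rank 1032, with rank 28343 in replicate 1 (2.56) and 495 in replicate 2 (15.9). At eif-3.I (I:2485499-2485814) it was 17.1 at rank 1324, with no overlapping peak in replicate 1 and rank 1052 in replicate 2 (12.4). These peaks rested on replicate 2, whereas that of eif-3.E (I:10642324-10642639) did not. Its signal was 16.7 at rank 1395, with rank 795 in replicate 1 (11.4) and 2746 in replicate 2 (9.21). The remaining candidates of eif-3 genes, at eif-3.H, eif-3.D and eif-3.J, ranked between 2230 and 5661. The genes eif-3.F, eif-3.G, eif-3.K and eif-3.L had no pooled candidate.

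The other initiation factor genes had a highest peak at rank 3502 or lower in the pooled list, or no pooled candidate. The cap-binding eIF4E genes ife-1, ife-3 and ife-2 ranked 3863, 4941 and 4964, with signals of 11.7, 10.8 and 10.8, and ife-4 and ife-5 had no peak in the window in any of the 3 lists. The scaffold gene ifg-1 (eIF4G) ranked 5708 at a summit nearer to M110.3. The genes of eIF2, which carries the initiator tRNA, ranked 3502 (eif-2alpha), 10012 (eif-2gamma) and 19188 (eif-2beta), and eif-2A and eif-2D had no pooled candidate. The remaining ones were eif-6, whose product keeps the ribosomal subunits apart (rank 6733), eif-4A3 (7550), eif-1 (9381) and eif-1.A (26166). In replicate 1 the eif-6 peak ranked 967 and that of eif-1 ranked 1438. Replicate 2 had no peak overlapping that of eif-6, but another in the window at rank 2405. The symbol eif-4A3 places this gene in the class although its product is known from the exon junction complex. Leaving it out changed neither the count of 0 nor the difference between the classes. Conversely, the naming rule leaves out inf-1, the gene of the eIF4A helicase. Its highest candidate ranked 3172 (signal 12.5), with no overlapping peak in replicate 1 and rank 823 in replicate 2. The rule also leaves out drr-2, the gene of an eIF4H-like protein. Its promoter window held an IDR summit at rank 98, nearer to the start of set-16.

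Ranks differed between the replicates in both classes. All 6 elongation genes had an overlapping peak in both replicates, and 5 of them ranked higher in replicate 1. Of the 19 initiation candidates, 11 had an overlapping peak in both, of which 7 ranked higher in replicate 2 and 4 in replicate 1. A further 5 had an overlapping peak in replicate 2 and none in replicate 1, and 3 the reverse. Of the latter, eif-6 and eif-4A3 had another replicate 2 peak in the window, at ranks 2405 and 21655. How all candidates split between the replicates was not counted. These small counts therefore do not show a difference particular to either class. The top 530 of replicate 1 held 5 elongation genes, iff-2 and no initiation gene, against a background of 2.0% of all protein-coding genes. The top 530 of replicate 2 held 3 elongation genes (eef-1G, eef-1A.1 and eef-2), iff-2 and 2 initiation genes (eif-2Bgamma and eif-3.B), against a background of 2.08%. In both replicates 4 genes stood among the top 530, namely eef-2, iff-2, eef-1A.1 and eef-1G. The share of all protein-coding genes in the top 530 of both replicates was not counted. The share of elongation genes exceeded that of initiation genes by 83.3 percentage points in replicate 1 and by 43.5 in replicate 2.

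**Figure D3:**
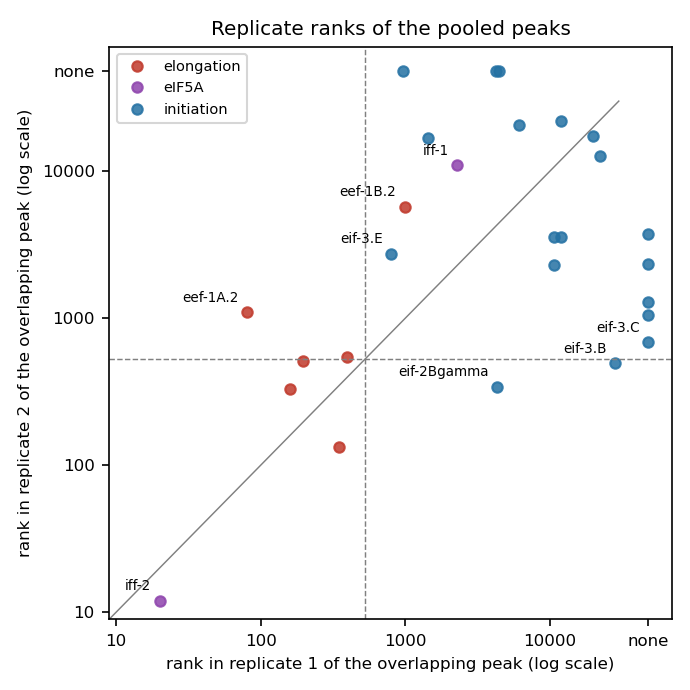
Rank of the overlapping peak in replicate 1 (x axis) and replicate 2 (y axis), both on log scales, for the 27 genes with a pooled candidate; "none" marks genes with no overlapping peak, the dashed lines mark rank 530 and the diagonal marks equal ranks. Left of and below both dashed lines lie eef-2, iff-2, eef-1A.1 and eef-1G; eif-2Bgamma and eif-3.B lie below the line of replicate 2 and far to the right on the axis of replicate 1.

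The core motif was found at strong and at weak peaks. It stood wholly within 50 bp of the summit at 12 of the 27 genes with a candidate (44.4%), beside 49.4% of IDR peaks, 19.6% of the highest candidates in promoter windows and 16.4% of all candidates. The median GC content of these windows was 46.5% for the translation factor genes, 50.5% for IDR peaks and 36.6% for all candidates, and its part in these shares was not tested. Elongation genes had a core at 2 of 6 summits, eef-1B.1 and eef-2, where it lay 45 and 44 bp from the summit. As the sequences show, none stood within 50 bp at eef-1A.1, eef-1A.2 and eef-1B.2, and the search found none at eef-1G. At iff-2 there were 2 cores, the nearer one 9 bp from the summit, and at iff-1 there was 1, also 9 bp away. Initiation genes had a core at 8 of 19 summits. The core closest to a summit, 1 bp away, was at eif-1.A, whose peak was the weakest of all at rank 26166. The longer forms CACGTG and TACGTG, which both contain ACGTG, were found at 0 of the 27 summits. Their shares were 2.23% and 2.67% of the highest candidates in promoter windows and 2.18% and 2.19% of all candidates. Among IDR peaks they were 7.92% and 13.2%. With shares as low as those of the first 2 sets, 0 of 27 summits does not show a depletion. Absence of these letters says nothing of how AHA-1 came to these sites.

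**Figure D4:**
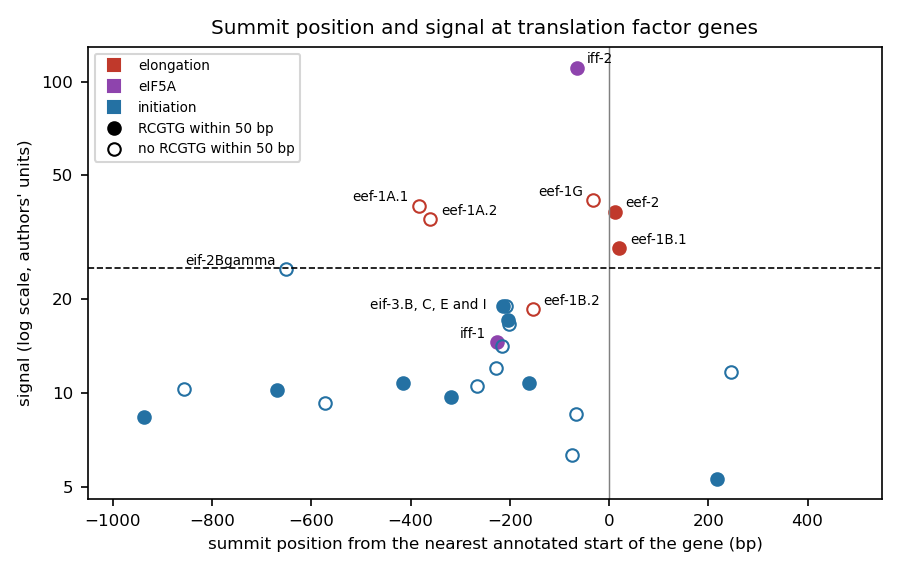
Position of the summit relative to the nearest annotated start of the gene (x axis, bp) and pooled signal (y axis, log scale, authors' units) for the 27 genes with a candidate; filled points have ACGTG or GCGTG on either strand within 50 bp of the summit, open points do not, and the dashed line is the lowest IDR signal. Above the line lie 6 genes, 3 of them with and 3 without the core.

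For 20 of the 27 genes the protein-coding start nearest to the summit was their own, and for 7 a neighbour's start was closer, among them eef-1A.1 and iff-1. Of the 7 eif-3 genes with a candidate, 5 (eif-3.B, eif-3.C, eif-3.E, eif-3.H and eif-3.I) had summits between -215 and -201 bp from the nearest start of their own gene, while that of eif-3.D lay at -267 bp and that of eif-3.J at -856 bp. This span of 15 bp held 1.66% of the highest summits of all 9352 genes and 0 of the other 20 translation factor genes with a candidate. The span was drawn around these 5 values after they were seen, so the shares are a description and not a comparison. Summits of the overlapping replicate peaks lay 0 to 62 bp from the pooled summit in replicate 2. In replicate 1 they lay 14 to 188 bp from it, where such a peak existed. The summit given to eif-3.H was nearer to the start of C41D11.3, 155 bp away. A protein-coding gene on the same strand ended within 500 bp upstream of 7 of the 39 genes, an arrangement common in worm operons. Of these 7, 5 had a candidate, beside 27 of all 39 and 46.8% of all protein-coding genes. The share among all genes with such a neighbour was not counted.

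Other gene groups of protein synthesis were set beside these counts. Of the 78 ribosomal protein genes, 28 had an IDR summit in the window (35.9%), with a median rank of 1244 over all of them. Of the 32 aminoacyl-tRNA synthetase genes, 1 had one, with a median rank of 17777. The counts for initiation factor and synthetase genes, 0 of 31 and 1 of 32, differ by 1 gene and do not order these groups. No test was made between these groups, and the elongation class has 6 genes.

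A list of translation genes outside the naming rule had 24 genes in the annotation, 17 of them with a candidate. An IDR summit stood in the window of 2.09% of all protein-coding genes and of 4 genes of the list (16.7%). These were ifet-1 (rank 35, signal 73.7), a repressor that binds eIF4E, larp-1 (rank 78, 52.04), an RNA-binding protein, drr-2 (rank 98, 47.8), an eIF4H-like protein, and abcf-2 (rank 432, 27.5), an ATPase of the ABC family. Each of these summits was nearer to the start of another gene, rps-1, wip-1, set-16 and ant-1.1 in that order. Their ranks in replicates 1 and 2 were 111 and 24 for ifet-1, 61 and 178 for larp-1, 71 and 110 for drr-2, and 286 and 1669 for abcf-2, which was thus lower in replicate 2. The other genes of the list with a candidate ranked between 662 (pab-2) and 21399 (ncbp-2). The 7 without one include the eIF5A modification genes dhps-1 and dohh-1; over all protein-coding genes 46.8% had a candidate.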

How the data were processed

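Peak lists of 2 biological replicates and of both together were used. Peaks were called from ChIP and control alignments, per the text files deposited beside the samples, which give the IDR list (optimal rule) as derived from the pooled list and that of replicate 2. The sources used here name no aligner, peak caller, settings or IDR threshold. Signal values are the peak caller's, as deposited by the authors, with unstated scaling. The −log10 q-values deposited by the authors served only to rank peaks in an alternative. No read counts are in the lists, so the depth of each replicate is unknown.

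The ce11 lists were set on WBcel235, the same assembly, with the Ensembl release 115 annotation, using Python 3.11.15 and pandas 2.3.3. Ranks follow signal. One summit could count for several genes. A replicate's rank is that of its strongest peak overlapping the pooled peak by at least 1 bp, also for the genes in the top 530 of both. The replicate's own highest summit in the window was used instead for the top 530 of a single replicate, the plot of ranks by gene, and the settings with 1 replicate alone. Coordinates count from 1. The window and motif rules were tested on simulated data. No tests were made. The ce10 lists were not used here.

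The members and lists were chosen with earlier results of these data known. Every member is named, with values in each list for eef- and iff- genes and for initiation genes ranked 2000 or better. Of the further translation genes, ranks in each list are given for those with an IDR summit and for inf-1. The sequence windows were widened from the 31 bp planned, and other items were chosen after their values were seen. Of 26 further genes listed, 2 did not match the annotation.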

Additional observations from a re-analysis of the deposited data

How the results depend on the processing

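The count of 6 genes with an IDR summit stayed between 5 and 9 in the settings tried, some of which used another list than the IDR list. For the changed windows and pooled lists the share of all protein-coding genes was not counted, so these counts have no background beside them. It was 6 with a narrower window reaching 500 bp upstream and with the outermost start, 7 with a window reaching 2000 bp upstream (adding eif-6), and 5 with the nearest start only (without eef-1A.1). It was 5 with a shorter list of the strongest pooled peaks (without eef-1B.1) and 9 with a longer one (adding eif-2Bgamma, eif-3.B and eif-3.C). Ranking by q-value also gave 6, but 928 pooled peaks tied at the highest value and signal broke the ties, so this setting repeats the ranking by signal. Each replicate alone gave 6. Without replicate 1, 4 of these were shared, eef-1A.2 and eef-1B.1 were lost, and eif-2Bgamma and eif-3.B were gained. The difference between the classes, 83.3 percentage points, ran from 43.5 without replicate 1 to 83.3 without replicate 2, and was 66.7 with the nearest start only, 75 with the iff- genes as elongation and 80.3 with them as initiation. The median rank of the 39 genes, 5661 with genes lacking a candidate placed last, was 9384 to 10947 without one replicate and 9381 with the narrower window, where fewer summits qualify. The share with the core was 33.3% within 25 bp and 63.0% within 100 bp. No paired analysis was possible because there is 1 group. Without read counts, the lists do not show whether a missing peak reflects low depth.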

Other observations

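The sites of both eef-1B genes shared a short sequence, noticed when their bases were read. GCGCATG, on either strand, stood within 50 bp of the summit at eef-1B.1 and eef-1B.2, and at 0 of the other translation factor genes with a candidate. It was found at 7 of 530 IDR peaks (1.32%) and at 0.407% of all candidates. The sequence was chosen from these sites, so the count is a description.

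With the search widened to 5 kb around each of the 39 genes, the single further IDR peak was at eif-6, at -1990 bp from its start (I:12966798-12967113, signal 35.1, rank 214). The nearest start was that of the tubulin gene tba-2. With the window drawn to 2000 bp upstream, eif-6 was the one initiation factor gene that gained an IDR summit.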
